A study of Drosophila melanogaster with 10 samples.

Results

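The proteasome genes of *Drosophila* testes were compared between homozygous *tbrd-1* mutants and wild-type flies. A gene was a member if its current symbol began with Prosalpha, Prosbeta, Rpn or Rpt followed by its number and if a probe set was paired with that gene alone. This gave 40 genes of 11982 with a probe set of their own. Names that end in T, T1, T2, R, R1 or R2 marked 14 testis paralogs, and the other 26 were general subunits. All 40 genes had 1 probe set each. The RNA was prepared from whole testes, and no other tissue was hybridized for comparison, so the name alone marked a paralog here as testis-specific. Marker genes of other tissues were bright too, as given below. Of 48 gene symbols that fit the pattern, *Prosbeta1*, *Rpn9*, *Rpn10*, *Rpt1*, *Rpt6* and *Rpt6R* had no probe set in the annotation used, and *Prosalpha1* and *Prosalpha1R* shared one. These 8 genes were not analysed here.

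Testes of homozygous mutants (*tbrd-1*1/*tbrd-1*1) and of the wild-type strain w1118 were hybridized to Affymetrix Drosophila Genome 2.0 arrays, 5 per genotype. Each array received independent RNA from the testes of 25 males, which were 0 to 2 days old. The mutant allele came from a P element that had been mobilized and had inserted into *tbrd-1*, and a single mutant line and a single control strain were used. *tbrd-1* encodes a bromodomain protein of primary spermatocytes, and mutant males are sterile.

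The 26S proteasome degrades proteins that carry ubiquitin chains. Its 20S core is a barrel with outer rings of alpha subunits, which form the gate, and inner rings of beta subunits, some of which carry the proteolytic sites. The 19S regulatory particle on its end holds the Rpt ATPases, which unfold the substrate, and the Rpn subunits, which bind ubiquitin chains, remove them and hold the particle together. The *Drosophila* genome holds additional copies of many subunit genes that are expressed mainly in the male germ line, and one of them, *Prosalpha6T*, is known to be needed for sperm individualization, the step in which sister spermatids are separated.

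The signals are RMA intensities, a linear scale on which the median probe set of an array had 68 to 71 in mutant and 70 to 78 in wild-type testes. *tbrd-1* itself had signals of 10 to 16 on the mutant arrays and 630 to 975 on the wild-type arrays. The 15 measured germ cell markers averaged 10.01 to 10.21 on the log2 scale in mutant and 9.83 to 10.09 in wild-type testes. At an adjusted p of 0.05 from limma, without a fold minimum, 7 of them were higher, 1 was lower and 7 did not pass. By the same rule 21.6% of all probe sets were higher and 14.7% lower. The largest changes of these markers went opposite ways, with -1.11 for *can* and 1.09 for *dj* on the log2 scale. Marker genes of other tissues were bright on some arrays. Gut digestive enzyme genes were bright on mutant array 3 and on wild-type arrays 1, 3 and 4, and the ejaculatory bulb genes *Ebp* and *EbpII* were bright on mutant arrays 2, 4 and 5 and on wild-type arrays 2 and 3. The 11 muscle markers averaged 7.45 to 7.91 in mutant and 8.01 to 8.29 in wild-type testes, without overlap of these means. Singly, 4 of the 11 were lower at an adjusted p of 0.05 from limma, 0 were higher and 7 did not pass. Only 2 had every mutant array below every wild-type array, and the changes ran from -1.16 for *Act88F* to 0.32 for *Mf*. The 4 cyst and hub cell markers averaged 5.42 to 5.55 in mutant and 5.33 to 5.68 in wild-type testes, and the 6 fat body and yolk genes averaged 5.29 to 5.52 in mutant and 5.73 to 6.03 in wild-type testes. The lower mutant mean of the fat body and yolk genes came from *Yp3* with a log2-fold change of -3.80, while the median change of the list was 0.16. The 13 accessory gland genes were bright everywhere, with 13.15 to 13.34 in mutant and 13.18 to 13.32 in wild-type testes. The part of these tissues in the values of the proteasome genes was not tested, but the counts of higher and lower genes were repeated without the arrays bright in gut or in bulb genes.

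No proteasome gene was called. A call required a log2-fold change of 1 or more in either direction and an adjusted p of 0.05 or less. With limma 0 of 40 members met both, under a rule that called 2.36% of 18769 probe sets as down-regulated and 1.18% as up-regulated. The methods' t-test also called 0 members at these thresholds. At an unadjusted p under 0.05, 19 members differed, or 47.5%, against 46.4% of all probe sets and 57.3% of those with a mean log2 signal of at least 9. The 95% intervals of all 40 changes lay within 1 on the log2 scale in either direction, and 38 lay within 0.58, a change of 1.5-fold.

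Below that fold minimum, 18 of the 40 genes passed the adjusted p of 0.05 alone, and "higher" and "lower" stand for these genes from here on. In mutant testes 11 were higher and 7 lower, against 21.6% higher and 14.7% lower of all probe sets. All members but 1 had a mean log2 signal of at least 9, and among the 4032 probe sets as bright as that 27.5% were higher and 21.5% lower. As shares of the 40 members, 27.5% were higher and 17.5% lower. Of the 40 genes, 7 had every mutant array below every wild-type array and 7 had every mutant array above, or 17.5% each, against 10.3% below and 13.6% above among all probe sets and 16.9% below and 22.5% above among the 4032 bright ones. In whole testes, fewer cells of a type and less RNA per cell cannot be told apart.

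Of 14 paralogs 6 were higher, 2 lower and 6 did not pass, with a median log2-fold change of 0.11 and a range of -0.50 to 0.49. Of 26 general subunits 5 were higher, 5 lower and 16 did not pass, with a median of -0.02 and a range of -0.31 to 0.32. The median was 0.07 over all probe sets and 0.02 over the bright ones. The median absolute change was 0.23 for paralogs, 0.08 for general subunits, 0.18 for all probe sets and 0.21 for the bright ones. Among the 10 general subunits that have a paralog in the list, 1 was lower and 0 were higher, and at an unadjusted p under 0.05 this count was also 1. Among the 16 without a paralog, 4 were lower and 5 higher. Of the bright probe sets 21.5% were lower and 27.5% higher, and of all probe sets 14.7% and 21.6%. Whether general subunits with and without a paralog differed was not tested.

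**Figure D1:**
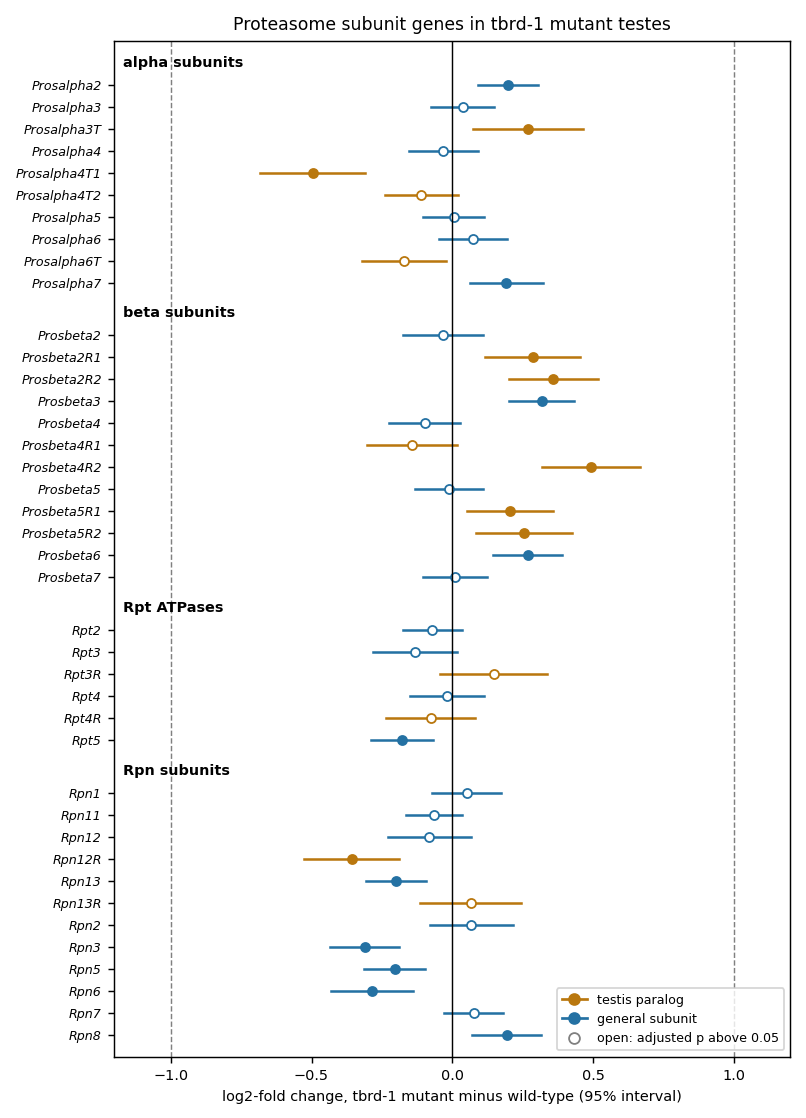
Log2-fold change (mutant minus wild-type, horizontal axis) of the 40 proteasome genes, grouped by subcomplex, with 95% intervals from limma for 5 arrays per genotype. Filled points passed an adjusted p of 0.05, open points did not, and the dashed lines mark the fold minimum of 1 on the log2 scale, which no interval reaches.

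The alpha ring held the largest decrease. *Prosalpha4T1* (CG17268, chromosome arm 3R), a testis paralog of the core subunit *Prosalpha4*, had signals of 638, 572, 584, 600 and 533 on the mutant arrays and 797, 930, 693, 906 and 818 on the wild-type arrays. All mutant arrays lay below all wild-type arrays. The log2-fold change was -0.50 (limma, standard error 0.08, adjusted p = 0.00091), or 0.709 of the wild-type level with a 95% interval of 0.623 to 0.806. This gene stayed lower under every alternative that was run, also without the arrays bright in gut or in bulb genes. Some alternatives could not have changed this, as given with the processing.

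The other alpha paralogs moved less. *Prosalpha3T* (CG1736, 3R) had 998, 906, 872, 862 and 916 on the mutant arrays and 721, 870, 713, 858 and 639 on the wild-type arrays. Of the wild-type arrays, array 2 alone reached the lowest mutant signal, and the gene was higher by 0.27 (standard error 0.09, adjusted p = 0.036 from limma). That call was lost, with adjusted p up to 0.0878, when mutant array 1, 2 or 5 or wild-type array 1, 3 or 5 was left out, while the change stayed between 0.21 and 0.32. The methods' t-test gave an adjusted p of 0.0579 and ribosomal protein scaling one of 0.0864. *Prosalpha6T* (CG5648, 2L), the paralog with the known role in sperm individualization, had 2937, 2927, 2599, 2547 and 2982 on the mutant arrays and 2977, 3380, 2909, 3271 and 3207 on the wild-type arrays. Mutant arrays 3 and 4 were the lowest, mutant arrays 1, 2 and 5 reached the lowest wild-type signal, and the change of -0.17 did not pass (standard error 0.07, adjusted p = 0.0716 from limma). *Prosalpha4T2* (CG4569, 2R) had 1378 to 1504 in mutant and 1420 to 1680 in wild-type testes, a change of -0.11 that did not pass (adjusted p = 0.165 from limma).

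Among the general alpha subunits, *Prosalpha2* and *Prosalpha7* were higher. *Prosalpha2* had 3804, 3781, 3643, 3828 and 3791 on the mutant arrays and 3231, 3480, 3316, 3315 and 3116 on the wild-type arrays, with no overlap and a log2-fold change of 0.20 (limma, standard error 0.05, adjusted p = 0.00887). *Prosalpha7* had 3585 to 3817 in mutant and 2992 to 3534 in wild-type testes and a change of 0.19 (adjusted p = 0.0263 from limma). Its call was lost, with adjusted p up to 0.0661, when mutant array 1 or 5 or wild-type array 1 or 3 was left out, with changes of 0.16 to 0.22 over all arrays left out, and ribosomal protein scaling gave 0.0993. The general partners of the alpha paralogs, *Prosalpha3*, *Prosalpha4* and *Prosalpha6*, had changes of 0.04, -0.03 and 0.07, with groups that overlapped in each case, and *Prosalpha5* did not pass either.

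The beta ring held most of the paralogs that were higher. Of 6 testis paralogs of beta subunits 5 were higher and 0 lower, and the middle of the 6 changes lay at 0.27. For comparison, 21.6% of all probe sets and 27.5% of the bright ones were higher. Whether the beta paralogs exceeded these shares was not tested. The 5 include *Prosbeta4R2*, with signals below the median probe set of the arrays, and the *Prosbeta5* paralogs, whose calls lay near the threshold. Without the arrays bright in bulb genes 0 testis paralogs were higher. *Prosbeta2* and *Prosbeta5* carry proteolytic sites in the general core, and each has a pair of paralogs. *Prosbeta2R2* (CG12161, 3R) had 1997, 2002, 1826, 1785 and 1914 on the mutant arrays and 1428, 1622, 1295, 1609 and 1491 on the wild-type arrays. The lowest mutant array was above the highest wild-type array, and the change was 0.36 (limma, standard error 0.07, adjusted p = 0.00258), or 1.28-fold with a 95% interval of 1.15 to 1.43.

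*Prosbeta2R1* (CG18341, X) had 916, 902, 827, 818 and 921 on the mutant arrays and 654, 827, 690, 771 and 665 on the wild-type arrays. Wild-type array 2 reached the lower mutant signals, the other wild-type arrays did not, and the gene was higher by 0.29 (standard error 0.08, adjusted p = 0.0135 from limma). *Prosbeta5R2* (CG31742, 2L) had 583, 562, 560, 571 and 561 on the mutant arrays and 445, 567, 436, 507 and 435 on the wild-type arrays. Here the mutant arrays lay close together and wild-type array 2 fell among them, with a change of 0.26 (limma, standard error 0.08, adjusted p = 0.0241). *Prosbeta5R1* (CG9868, 2R) had 2760, 2887, 2616, 2574 and 3131 on the mutant arrays and 2321, 2593, 2461, 2508 and 2227 on the wild-type arrays, and it was higher by 0.20 (standard error 0.07, adjusted p = 0.0384 from limma). The calls of the *Prosbeta5* paralogs lay near the threshold. *Prosbeta5R2* lost its call, with adjusted p up to 0.0607, without mutant array 1 or wild-type array 1 or 3, while its change stayed between 0.22 and 0.32 with any array left out. *Prosbeta5R1* lost its call, with adjusted p up to 0.0893, without mutant array 1, 2 or 5 or wild-type array 1, 3, 4 or 5, and its change stayed between 0.16 and 0.23. With ribosomal protein scaling their adjusted p was 0.0548 for *Prosbeta5R2* and 0.12 for *Prosbeta5R1*. The general subunits *Prosbeta2* and *Prosbeta5* had changes of -0.03 and -0.01 that did not pass.

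*Prosbeta4R1* and *Prosbeta4R2*, the paralogs of *Prosbeta4*, lie on chromosome arm 2L with 1 gene, *Or23a*, between them by Release 6 gene order, and their changes were unlike. *Prosbeta4R2* (CG17302) had 52, 51, 45, 43 and 56 on the mutant arrays and 33, 33, 35, 37 and 37 on the wild-type arrays, with no overlap. Its log2-fold change of 0.49 (limma, standard error 0.08, adjusted p = 0.000609) was the largest increase among the members, but its signals lay below the median probe set of the arrays. Without detection calls in the table, whether the gene was expressed above background was not tested. *Prosbeta4R1* (CG17301) had 1686, 1495, 1523, 1512 and 1523 on the mutant arrays and 1633, 1927, 1489, 1711 and 1811 on the wild-type arrays. These groups overlapped, and the change of -0.14 did not pass (standard error 0.07, adjusted p = 0.148 from limma). *Prosbeta4* had 1751 to 2041 in mutant and 1931 to 2186 in wild-type testes, a change of -0.10 that did not pass.

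Among the general beta subunits without a paralog, *Prosbeta3* and *Prosbeta6* were higher. *Prosbeta3*, a structural subunit of the inner ring, had 7151, 7021, 6846, 6485 and 6920 on the mutant arrays and 5395, 5715, 5171, 5547 and 5819 on the wild-type arrays. Every mutant array was above every wild-type array, and the change of 0.32 (limma, standard error 0.05, adjusted p = 0.000799), or 1.25-fold, was the largest among general subunits. *Prosbeta6* had 3969, 3927, 3681, 3702 and 4088 on the mutant arrays and 3033, 3473, 3256, 3137 and 3202 on the wild-type arrays, again with no overlap and a change of 0.27 (limma, standard error 0.06, adjusted p = 0.00348). *Prosbeta7* did not pass.

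**Figure D2:**
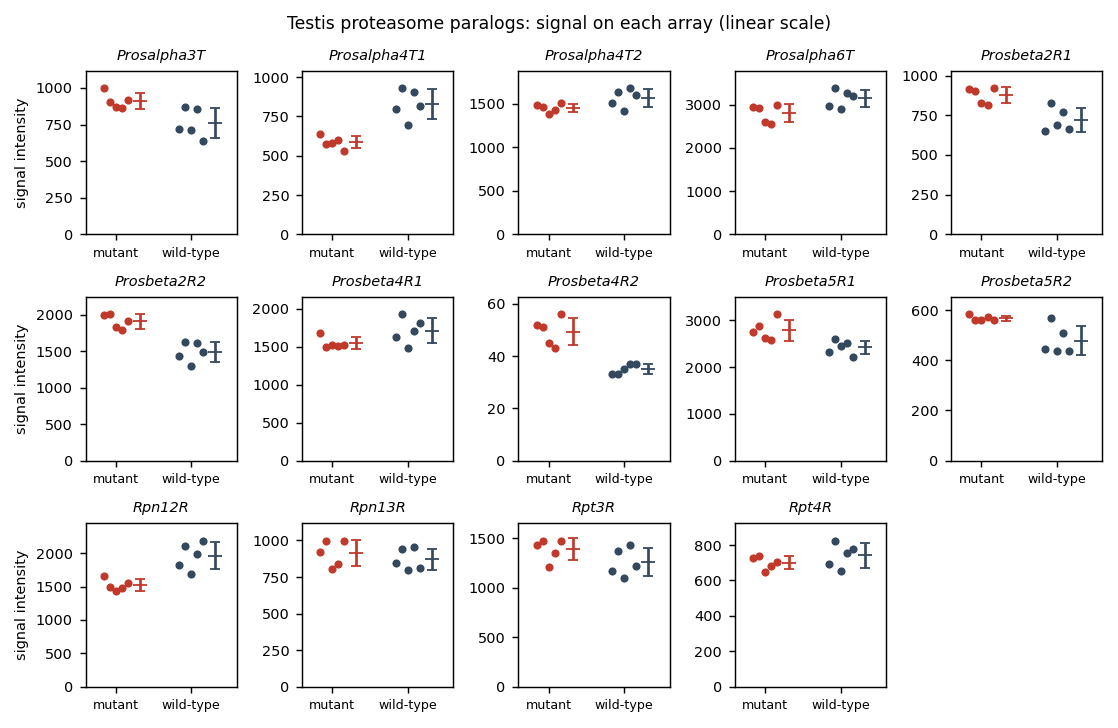
Signal intensity (linear vertical axis from 0, own scale in each panel) of the 14 testis paralogs on each array, mutant arrays 1 to 5 left and wild-type arrays 1 to 5 right, with mean and SD (n = 5 each) beside the points. *Prosalpha4T1* and *Rpn12R* lie lower in the mutant and *Prosbeta2R2* and *Prosbeta4R2* higher without overlap, and the other panels overlap.

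Of the ATPases of the regulatory particle, no testis paralog passed and 1 general subunit was lower. *Rpt3R* (CG9475, 3R) had 1431, 1478, 1215, 1352 and 1473 on the mutant arrays and 1170, 1374, 1095, 1432 and 1223 on the wild-type arrays. The groups overlapped widely and the change was 0.15 (limma, standard error 0.09, adjusted p = 0.206). *Rpt4R* (CG7257, 3L) had 650 to 739 in mutant and 651 to 825 in wild-type testes, with a change of -0.08 (adjusted p = 0.422 from limma). *Rpt5* had 1175, 1165, 1106, 1090 and 1151 on the mutant arrays and 1245, 1301, 1271, 1250 and 1368 on the wild-type arrays. It was lower without overlap, by 0.18 on the log2 scale (standard error 0.05, adjusted p = 0.0173 from limma), a call that median centring ended at -0.07 (adjusted p = 0.391 from limma). *Rpt3* and *Rpt4*, the partners of the paralogs, had changes of -0.13 and -0.02 that did not pass, and *Rpt2* did not pass.

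Among the 10 general Rpn subunits 4 were lower, 1 was higher and 5 did not pass. For comparison, 14.7% of all probe sets and 21.5% of the bright ones were lower. Whether the Rpn subunits exceeded these shares was not tested. *Rpn3*, *Rpn5* and *Rpn6* encode scaffold subunits of the lid, the outer part of the regulatory particle. *Rpn3* had 949, 1031, 932, 894 and 1012 on the mutant arrays and 1196, 1241, 1215, 1137 and 1184 on the wild-type arrays, with no overlap and a change of -0.31 (limma, standard error 0.06, adjusted p = 0.00127). It also stayed lower under every alternative that was run. *Rpn6* had 3972, 4021, 3785, 3658 and 4014 on the mutant arrays and 4677, 5020, 4820, 5112 and 4126 on the wild-type arrays, where wild-type array 5 lay close to the mutant signals, and a change of -0.29 (limma, standard error 0.07, adjusted p = 0.00647). *Rpn5* had 1770 to 1937 in mutant and 2029 to 2187 in wild-type testes, a change of -0.20 (adjusted p = 0.00786 from limma). After median centring *Rpn6* had a change of -0.18 (adjusted p = 0.0504 from limma) and *Rpn5* one of -0.10 (adjusted p = 0.167 from limma).

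*Rpn13*, a ubiquitin receptor of the particle, had 2056, 2095, 1985, 2164 and 2158 on the mutant arrays and 2375, 2387, 2350, 2519 and 2385 on the wild-type arrays, with no overlap and a change of -0.20 (limma, standard error 0.05, adjusted p = 0.00788). Median centring ended this call, with a change of -0.10 (adjusted p = 0.224 from limma). *Rpn8*, a lid subunit and the partner of the deubiquitinase *Rpn11*, went the other way. It had 1584, 1631, 1590, 1535 and 1639 on the mutant arrays and 1316, 1469, 1344, 1344 and 1513 on the wild-type arrays and was higher by 0.19 (standard error 0.06, adjusted p = 0.0193 from limma), which became 0.0519 without wild-type array 1, where the change was 0.17, and 0.0662 with ribosomal protein scaling. *Rpn1*, *Rpn2*, *Rpn7*, *Rpn11* and *Rpn12* did not pass.

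Of the Rpn paralogs, *Rpn12R* was lower and *Rpn13R* did not pass. *Rpn12R* (CG11552, 3L) had 1656, 1489, 1435, 1485 and 1558 on the mutant arrays and 1828, 2103, 1693, 1984 and 2188 on the wild-type arrays. All mutant arrays lay below all wild-type arrays, and the change was -0.36 (limma, standard error 0.08, adjusted p = 0.00406), or 0.781 of the wild-type level with a 95% interval of 0.694 to 0.878. After median centring it was -0.25 (adjusted p = 0.0551 from limma). *Rpn13R* (CG6789, X) had 922, 999, 807, 836 and 997 on the mutant arrays and 846, 940, 800, 955 and 815 on the wild-type arrays, with wide overlap and a change of 0.06 (adjusted p = 0.557 from limma). The probe sets of 5 members, *Rpn12R*, *Rpn13*, *Rpn6*, *Prosbeta5* and *Prosbeta7*, carry the suffix with which Affymetrix marks probes shared between transcripts, so their signals may include related transcripts.

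To ask whether a paralog and its general partner changed unequally, the log2 ratio of their signals was taken on each array and compared between genotypes with a two-sided exact permutation test. With 5 against 5 arrays the smallest p is 0.00794, and the p-values of the 14 pairs, which involve 10 partners, are unadjusted. The test compares changes and not levels, since signals of different probe sets are not on a common scale. In 9 of 14 pairs p was at most 0.05. In 7 of them the paralog changed upwards relative to its partner and in 2 downwards, and 5 pairs had the smallest p. Without the dim *Prosbeta4R2*, 6 of 13 pairs were upward at this threshold and 4 had the smallest p. Of single probe sets, 46.4% of all and 57.3% of the bright ones had an unadjusted limma p under 0.05. How many pairs of other genes would pass the ratio test was not computed.

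Over its partner, *Prosbeta4R2* had the largest of the 14 differences, 0.59 between mutant and wild-type testes (standard error 0.10, exact p = 0.00794), but with signals below the median probe set this value is not known to lie above background. It was followed by *Prosbeta2R2* with 0.39 (standard error 0.08) and *Prosbeta2R1* with 0.32 (standard error 0.06), both at the same exact p of 0.00794. The ratio of *Prosalpha4T1* to *Prosalpha4* was lower in the mutant, with a difference of -0.46 (standard error 0.09, exact p = 0.00794). Against the mean of the wild-type arrays its mutant ratios were -0.38, -0.36, -0.44, -0.53 and -0.61, and the wild-type ratios reached down to -0.26. *Prosalpha6T*, which did not pass on its own, had a ratio to *Prosalpha6* that was lower without overlap, with mutant values of -0.23, -0.11, -0.30, -0.46 and -0.11 against -0.08 to 0.06 in wild-type testes. The difference was -0.24 (standard error 0.07, exact p = 0.00794), and it joined a change of -0.17 in the paralog with one of 0.07 in the partner.

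For *Prosalpha3T* the difference was 0.23 (exact p = 0.0238), for *Prosbeta5R1* 0.22 and for *Prosbeta5R2* 0.27 (exact p = 0.0159 each). *Rpn13R* differed from *Rpn13* by 0.27 (exact p = 0.0159), where the partner was lower and the paralog had not passed. Leaving out mutant array 1, 3 or 5 took the exact p of *Prosalpha3T* to at most 0.0714, and leaving out mutant array 2 took that of *Prosbeta5R2* to 0.0556. The 5 pairs above the threshold were *Rpt3R* with a difference of 0.28 and an exact p of 0.0794, *Rpn12R* with -0.27 and 0.0556, *Prosalpha4T2* with -0.08 and 0.27, *Rpt4R* with -0.06 and 0.50, and *Prosbeta4R1* with -0.04 and 0.548. Near the threshold, *Rpn12R* reached an exact p of 0.00794 without wild-type array 3 and *Rpt3R* one of 0.0397 without mutant array 3. All 14 differences kept their sign when any single array was left out.

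**Figure D3:**
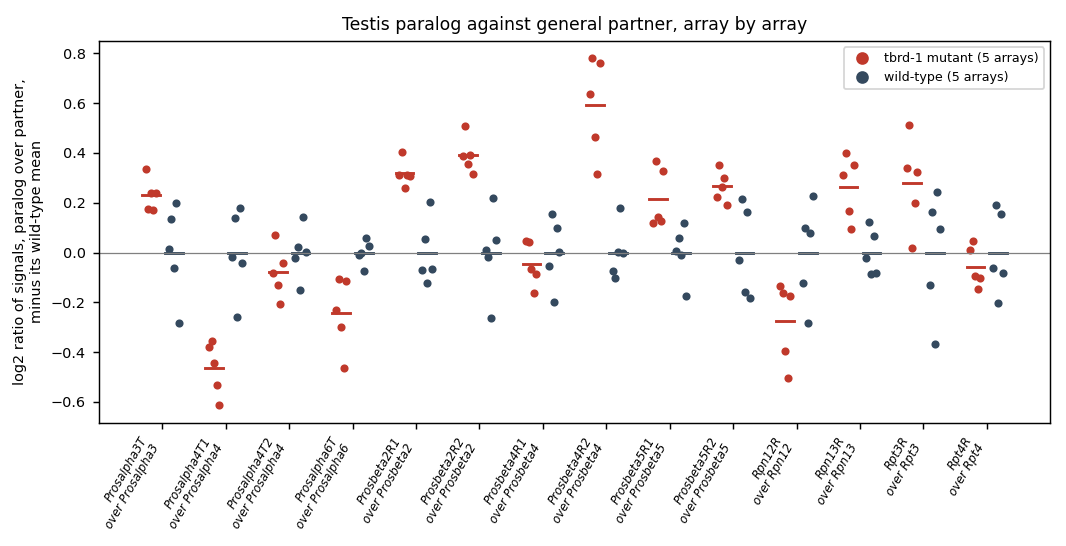
Log2 ratio of signals, testis paralog over general partner, on each array minus the mean of that ratio over the wild-type arrays (vertical axis), with mutant arrays left and wild-type arrays right in each of the 14 pairs and bars at the group means. The ratios of *Prosalpha4T1* and *Prosalpha6T* lie below all wild-type arrays and those of *Prosbeta2R1*, *Prosbeta2R2* and *Prosbeta4R2* above.

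Paralogs of the same subunit were compared in the same way, a comparison added after their values had been seen. *Prosalpha4T1* minus *Prosalpha4T2* changed by -0.39 (standard error 0.06, exact p = 0.00794), and *Prosbeta4R1* minus *Prosbeta4R2* by -0.64 (standard error 0.10, exact p = 0.00794), in both cases without overlap, where the second value again involves the dim signals of *Prosbeta4R2*. *Prosbeta2R1* and *Prosbeta2R2* differed in change by -0.07 (standard error 0.05, exact p = 0.246) and *Prosbeta5R1* and *Prosbeta5R2* by -0.05 (standard error 0.07, exact p = 0.516), with groups that overlapped in both.

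The paralogs varied more between arrays of a genotype than the general subunits did. The median SD within a genotype was 0.12 on the log2 scale for paralogs, 0.07 for general subunits and 0.11 for probe sets of comparable brightness. As deviations from the wild-type mean, the mean of the 14 paralogs was 0.12, 0.09, -0.03, -0.02 and 0.10 on the mutant arrays and -0.08, 0.13, -0.13, 0.09 and -0.02 on the wild-type arrays. Wild-type array 2 was the brightest of its group in 9 of 14 paralogs and wild-type array 3 the dimmest in 9 of 14, while mutant arrays 3 and 4 were the dimmest in 6 each. The mean of the 26 general subunits stayed between -0.05 and 0.02 on the mutant arrays and -0.03 and 0.04 on the wild-type arrays.

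The germ cell markers moved with the paralogs within the wild-type arrays. Their mean log2 signal was 10.14, 10.21, 10.01, 10.15 and 10.12 on the mutant arrays and 9.95, 10.08, 9.83, 10.09 and 9.94 on the wild-type arrays. Wild-type array 3, with the dimmest paralogs, had the lowest germ cell markers and was bright in both gut and bulb genes, and wild-type arrays 2 and 4 had the highest of both. Their part in the changes of the paralogs was not tested. Without the 4 arrays bright in gut genes, which leaves 4 mutant and 2 wild-type arrays, 2 paralogs were higher (*Prosbeta2R2* and *Prosbeta4R2*) and 2 lower (*Prosalpha4T1* and *Rpn12R*), and among general subunits *Prosbeta3* was higher and *Rpn3* lower. Genes that lost their call there included *Prosbeta2R1* with a change of 0.26, *Prosbeta6* with 0.23 and *Rpn8* with 0.10. Without the 5 arrays bright in bulb genes, which leaves 2 mutant and 3 wild-type arrays, 0 paralogs and 0 general subunits were higher in limma, and *Prosalpha4T1* and *Rpn3* were lower. Among genes that were higher over all arrays, the changes themselves stayed of similar size there, with 0.34 for *Prosbeta2R2*, 0.33 for *Prosbeta2R1*, 0.33 for *Prosbeta3* and 0.29 for *Prosbeta6*. The median change of all paralogs was 0.02 there, against 0.11 over all arrays. *Rpt3R*, which had not passed, went from 0.15 to 0.05.

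**Figure D4:**
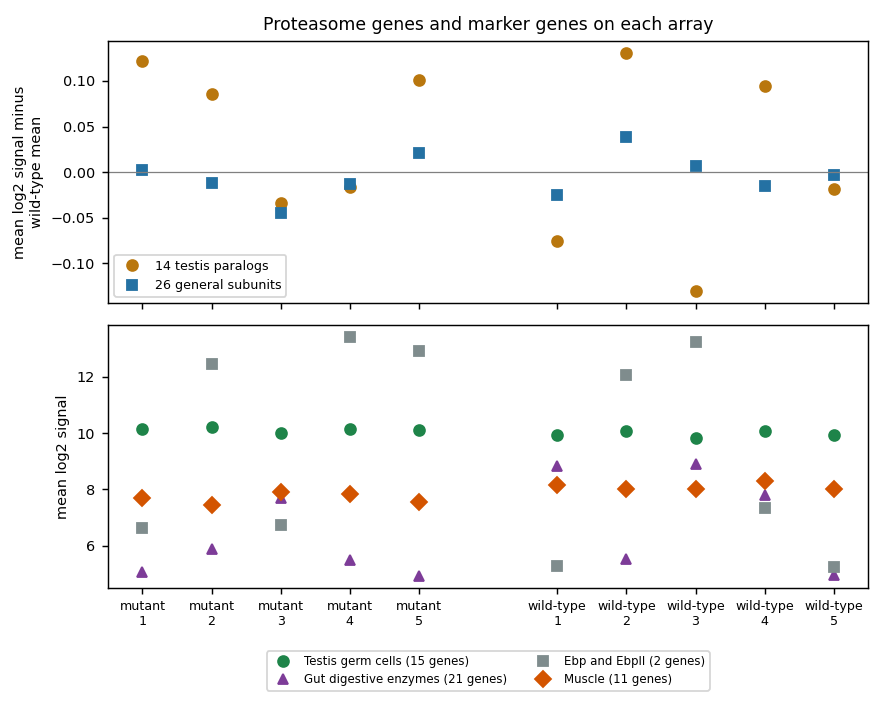
Upper panel, mean log2 signal of the 14 testis paralogs and of the 26 general subunits on each array minus the wild-type mean. Lower panel, mean log2 signal of germ cell, gut, bulb and muscle marker genes on the same arrays, with the mutant arrays left and the wild-type arrays right, where gut and bulb genes differ strongly between arrays of 1 genotype.

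Around the proteasome, regulators and assembly factors were mixed. Of 16 measured genes 5 were higher, 4 lower and 7 did not pass, with a median log2-fold change of 0.05. *ntc* (nutcracker), an F-box protein needed for proteasome function and caspase activation in *Drosophila* spermatids, had a signal of 2109 ± 93.7 in mutant and 3367 ± 346 in wild-type testes (SD, n = 5 each), a change of -0.67 (adjusted p = 4e-05 from limma). *Pomp*, the chaperone that assembles the core, had 1190 ± 50.7 in mutant and 1689 ± 182 in wild-type testes, a change of -0.50 (adjusted p = 0.000424 from limma). The shuttle factor *Rad23*, which carries ubiquitinated proteins to the proteasome, was higher by 0.48 (adjusted p = 0.000413 from limma), whereas the related gene *CG10694* was lower by 0.40 (adjusted p = 0.00324 from limma). *p47* and *Npl4*, cofactors of the segregase that extracts ubiquitinated proteins, were higher by 0.39 and 0.27.

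The genes that provide ubiquitin did not pass. All 4 ubiquitin genes had changes between -0.06 and 0.00, and 0 of them had an unadjusted p under 0.05. The list of ubiquitin-activating and conjugating enzymes held 16 symbols, which gave only 6 measured genes. The activating enzyme *Uba1* was not among them. *vih*, an enzyme of the anaphase-promoting complex pathway, was lower by 0.25. *Ubc7*, an enzyme of protein degradation at the endoplasmic reticulum, was higher by 0.21.

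Cullin scaffolds build the ligases that mark proteins for the proteasome, and *Cul3* with *klhl10* is known for caspase activation in *Drosophila* spermatids. Of 16 measured genes of cullin ligases 4 were higher, 2 lower and 10 did not pass. Beside this, 27.5% of the bright probe sets were higher and 21.5% lower, and 21.6% and 14.7% of all probe sets. *SkpD*, a relative of the adaptor *SkpA*, had 538 ± 19.5 in mutant and 284 ± 40.9 in wild-type testes (SD, n = 5 each), a change of 0.93 (adjusted p = 1.98e-05 from limma). It stayed below the fold minimum as deposited and passed it at 1.04 after median centring. *Cul1* was lower by 0.53 (adjusted p = 0.000116 from limma) and *Cul3* by 0.29 (adjusted p = 0.00133 from limma), while *Cul5* was higher by 0.31 (adjusted p = 0.011 from limma) and *SkpA* by 0.28 (adjusted p = 0.00176 from limma).

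The COP9 signalosome, a complex built like the lid that removes Nedd8 from cullins, held the largest change among these lists. *CSN1a* had 908 ± 30.7 in mutant and 1796 ± 125 in wild-type testes (SD, n = 5 each), a change of -0.98 (limma, standard error 0.06, adjusted p = 3.9e-07), which became -1.01 with ribosomal protein scaling. *CSN1b* was lower by 0.33 (adjusted p = 0.00378 from limma). *CSN5*, the catalytic subunit, was higher by 0.49 (adjusted p = 0.000344 from limma) and *CSN6* by 0.20 (adjusted p = 0.041 from limma). Of the 9 measured genes 2 were higher, 2 lower and 5 did not pass. Beside this, 27.5% of the bright probe sets were higher and 21.5% lower, and 21.6% and 14.7% of all probe sets.

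Intensities are relative to the array, and scaling moved the counts of small changes. Centring each array on its median raised the median change of all probe sets by 0.10 on the log2 scale and scaling on ribosomal protein genes lowered it by 0.03. Each scaling shifted all genes alike, so changes smaller than the shift have no settled direction. After centring, the count of lower paralogs was 1 and that of lower general subunits 1, and after ribosomal protein scaling 3 paralogs and 3 general subunits were higher.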

How the data were processed

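RNA of testes from 5 mutant and 5 wild-type pools was measured on Affymetrix Drosophila Genome 2.0 arrays. The authors deposited 1 table of intensity values of 18952 probe sets, and the submitters' processing notes name RMA and Affymetrix Expression Console, with versions not given in the sources used here. Intensity values as deposited are linear whole numbers, and the table holds no detection calls. RMA normalizes arrays to a common distribution, so a shift of most genes would not be seen. Columns were matched to samples by name. The number of arrays limits the precision.

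The log2 of the intensities was taken without further normalization. Without the 183 control probe sets, 18769 remained for the fit by genotype (R 4.3.3, limma 3.58.1, lmFit and eBayes), with Benjamini-Hochberg adjustment over all of them. A call needed a log2-fold change of 1 or more in either direction and an adjusted p of 0.05 or less. Counts at the adjusted p alone were added after seeing the data. The fit and the permutation test were tested on simulated data. Exact tests and plots used Python 3.11.15 and matplotlib 3.10.9. The platform annotation gave 13647 probe sets a single gene, and a Release 6 gene table supplied the current symbol for 13544 of them. The files name no assembly, so no coordinates of this table were used.

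The named genes were every testis paralog and its partner, up to 4 general subunits without a paralog with the largest increase and 4 with the largest decrease, and up to 6 genes of each pathway list. *Prosalpha7*, *Prosalpha5*, *Prosbeta7* and the other general subunits named outside this rule were chosen after their values were seen. Members, lists and tests were chosen with earlier results of these data known. Alternatives were the methods' t-test, arithmetic means, a variance trend, a robust prior, array weights, the dimmest probe sets left out, control probe sets kept, ribosomal protein scaling, median centring, other fold minimums, a replicate block, the mean of all probe sets of a gene, and each array left out in turn. Members had 1 probe set each, so the mean of all probe sets of a gene could not change their values. Arithmetic means replaced the fold change and kept the p-values of the main fit. Leaving out the arrays bright in gut or bulb genes was added after seeing the data.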

Additional observations from a re-analysis of the deposited data

Results flagged for a closer look

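In 80 groups of 5 arrays, 1 per member and genotype, the highest or lowest array was compared with the nearest of the others, and its gap was divided by the range of the group. In 3 groups this share passed the critical value of 0.71, and chance alone passes it in about 1 in 20 groups. *Prosalpha2* had 3643 on mutant array 3, below 3781 to 3828 on the other mutant arrays, with a share of 0.751. *Prosbeta4R1* had 1686 on mutant array 1, above 1495 to 1523 on the other mutant arrays, with a share of 0.846. *Rpn13* had 2519 on wild-type array 4, above 2350 to 2387 on the other wild-type arrays, with a share of 0.775.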

How the results depend on the processing

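No member was called under any alternative that kept a fold minimum. Without one, 11 members were higher and 7 lower, and 4052 probe sets were higher and 2751 lower. At a fold minimum of 0.58 on the log2 scale 817 probe sets were higher and 1014 lower. Of the 18 genes past the adjusted p, 8 kept their call under every alternative but those without bright arrays, and *Prosalpha4T1* and *Rpn3* under these too.

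Median centring left 1 lower paralog and 1 lower general subunit, with medians of 0.209 for paralogs and 0.0882 for general subunits. These medians rose together with that of all probe sets, which was 0.07 before centring and went up by 0.10. Centring turned the sign of *Rpt4R* (0.0261), *Prosalpha4* (0.0719), *Prosbeta2* (0.0706), *Prosbeta4* (0.0051), *Prosbeta5* (0.0921), *Rpn12* (0.0209) and *Rpt4* (0.0842), none of which had passed. Ribosomal protein scaling left 3 higher paralogs, 3 higher general subunits and a general median of -0.0458. Array weights turned *Prosbeta5* (0.023) and *Rpt4* (0.008). Without the arrays bright in gut genes 2 paralogs were higher, 1 general subunit was higher, 1 was lower, the general median was -0.0567 and *Prosalpha3* was -0.0033. Without those bright in bulb genes 0 paralogs and 0 general subunits were higher, 1 of each was lower, and *Rpn13R* was -0.0123, *Prosbeta2* 0.0635 and *Prosbeta5* 0.0472. These settings test fewer arrays, and pairs cannot go below an exact p of 0.0667 and 0.1 there.

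With each array left out in turn, 3 to 6 paralogs were higher and 2 to 3 lower, and 3 to 5 general subunits were higher. The fewest higher paralogs came without mutant array 1 or wild-type array 1 or 3, and the fewest higher general subunits without wild-type array 1. Changes ran from -0.0578 to 0.0035 for *Prosalpha4*, from -0.0581 to 0.0039 for *Prosbeta2*, from -0.0321 to 0.0137 for *Prosbeta5* and from -0.0492 to 0.0196 for *Rpt4*. The cause of these shifts was not tested. For same-numbered mutant and wild-type arrays, deviations from the genotype mean correlated over all probe sets by -0.31, -0.19, 0.48, -0.05 and 0.28. Such deviations cancel within a genotype and hold the differences in gut and bulb genes. This check therefore cannot decide whether the numbers pair the samples. With the replicate number as a block 499 probe sets were called down-regulated and 221 up-regulated, 4 paralogs were higher and 2 lower, and 4 general subunits were higher and 5 lower. Pairs cannot go below 0.0625 with that block.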
